A study of Danio rerio with 26 samples.

Results

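The 7 mitochondrial-genome genes for subunits of respiratory complex I were followed in the skin of male zebrafish (Danio rerio). They were chosen by symbol, ignoring case, and all 7 of the 32105 genes in the count tables were found: mt-nd1 (ENSDARG00000063895), mt-nd2 (ENSDARG00000063899), mt-nd3 (ENSDARG00000063914), mt-nd4 (ENSDARG00000063917), mt-nd4l (ENSDARG00000063916), mt-nd5 (ENSDARG00000063921) and mt-nd6 (ENSDARG00000063922). All 7 passed the filter on low counts in every comparison. RNA sequencing covered 26 fish, each giving 1 library. Rotenone, which blocks complex I, was given in all 3 groups, so the values set ages and concentrations against each other and not against untreated skin.

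The groups were 8 fish aged 3 years at 37.5 nM rotenone (strain AB JxTu Tg(flk:mCherry)), 9 fish aged 1 year at 37.5 nM (strain AB JxTu) and 9 fish aged 1 year at 3.75 nM (strain AB JxTu). Only the 3-year fish carried the transgene, so age and strain label cannot be told apart. The 17 fish at 37.5 nM and the 9 fish at 3.75 nM were in separate count tables, so concentration and table cannot be told apart. Numbers given to the fish in their titles form a high run of 14 fish and a low run of 12 fish, which the labels do not explain, with 4 or 5 fish of each run in each group. The duration of treatment is not given in the sources used here.

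Complex I takes electrons from NADH, passes them to ubiquinone and pumps protons across the inner mitochondrial membrane. Its membrane arm is built around the subunits encoded in mitochondrial DNA, and the other subunits come from nuclear genes. Rotenone blocks electron transfer at the ubiquinone site, close to the ND1 subunit. In mammals, ND1 and ND3 lie where the membrane arm meets the peripheral arm, ND2, ND4 and ND5 resemble proton antiporters, and ND4L and ND6 lie between these groups. Mitochondrial transcripts are made as long precursors and cut at the transfer RNAs between genes, and in vertebrates mt-nd6 is the only protein gene on the other strand. In the RefSeq annotation of the assembly GRCz12tu, ND3, ND4L, ND4, ND5 and ND6 follow one another among the protein genes, while ND1 and ND2 stand together ahead of the cytochrome oxidase genes. The library kit does not mark strand, so reads of mt-nd6 and reads from the opposite strand at that place cannot be told apart.

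Assigned counts per fish ranged from 25454674 to 35162246. Keratinocyte markers, the defining genes of skin epidermis, were abundant: the mean log2 CPM of 17 genes (CPM is the count scaled to library size) was 8.85 at 3 years, 8.93 at 1 year and 37.5 nM and 8.91 at 3.75 nM. The libraries also held skeletal muscle transcripts, with a mean log2 CPM over 41 markers of 6.37 at 3 years, 5.74 at 1 year and 37.5 nM and 6.20 at 3.75 nM. Among the 3-year fish, replicate 3 stood apart: its muscle mean was 8.64, the highest of all 26 fish, and 3.61% of its assigned counts came from the 7 complex I genes. In whole skin, more mitochondria-rich cells and more RNA per cell cannot be told apart.

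The 7 genes together made up 1.95% ± 0.78 of assigned counts at 3 years and 37.5 nM (SD, n = 8), 1.47% ± 0.29 at 1 year and 37.5 nM (n = 9) and 1.43% ± 0.48 at 1 year and 3.75 nM (n = 9). All 13 protein genes of the mitochondrial genome made up 10.1% ± 3.59 at 3 years, 9.33% ± 1.61 at 1 year and 37.5 nM and 7.96% ± 2.44 at 3.75 nM. By comparison mt-co1, for the catalytic subunit of cytochrome oxidase, alone took 33.1% of the counts of the 13 genes at 3 years, 36.3% at 1 year and 37.5 nM and 34.3% at 3.75 nM.

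Levels per length were compared on the deposited RPKM values, averaged over the 26 fish as a description. mt-nd4 was highest of the 7 at 3680 RPKM, followed by mt-nd1 at 3123, mt-nd2 at 2574, mt-nd3 at 2343, mt-nd4l at 2186, mt-nd6 at 2114 and mt-nd5 at 1642. Neighbours in this order differed by 1.03-fold (mt-nd4l over mt-nd6) to 1.29-fold (mt-nd6 over mt-nd5), and each such step was smaller than the SD between fish of both genes, which ran from 577 RPKM (mt-nd5) to 1466 RPKM (mt-nd1). That SD includes variation the genes share across fish, so it does not measure how sure the order is. Comparisons of neighbours within a fish are not given, because the scale of the deposited RPKM differs from row to row. That scale, which over the 13 protein genes departed from a library's total by -0.59 to 0.41 on the log2 scale, also enters the averages. Its part in the order of close neighbours was not tested. The means of all 7 lay below those of the other 6 protein genes of the mitochondrial genome, of which mt-atp8 was lowest at 5266 RPKM and mt-co1 highest at 21406.

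At the junction of the arms, mt-nd1 had 2223 to 9950 CPM at 3 years and 37.5 nM (median 2847), 1794 to 3416 CPM at 1 year and 37.5 nM (median 2334) and 1839 to 4580 CPM at 1 year and 3.75 nM (median 2305). mt-nd3 had 510 to 2695 CPM at 3 years (median 704), 610 to 992 at 1 year and 37.5 nM (median 685) and 428 to 1192 at 3.75 nM (median 588). The groups overlapped for both genes, and replicate 3 of the 3-year fish gave the highest value of each.

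Of the antiporter-like subunits, mt-nd2 had 2152 to 7549 CPM at 3 years (median 2444), 1658 to 3110 at 1 year and 37.5 nM (median 2274) and 1478 to 4292 at 3.75 nM (median 1961). mt-nd4 had 3848 to 13672 CPM at 3 years (median 5154), 3611 to 6862 at 1 year and 37.5 nM (median 5033) and 2855 to 6997 at 3.75 nM (median 3719). mt-nd5 had 2420 to 7250 CPM at 3 years (median 3021), 1917 to 3723 at 1 year and 37.5 nM (median 2543) and 1802 to 4427 at 3.75 nM (median 2279). The groups overlapped for all of these, and 2 fish of the high run at 3.75 nM lay above the other 7 of their group. Among the small subunits, mt-nd4l had 501 to 1768 CPM at 3 years (median 626), 444 to 899 at 1 year and 37.5 nM (median 614) and 340 to 856 at 3.75 nM (median 465). mt-nd6 had 828.8 to 2490 CPM at 3 years (median 1127), 911 to 1419 at 1 year and 37.5 nM (median 970) and 710.5 to 1591 at 3.75 nM (median 821). The same 3-year fish was again the highest for both.

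**Figure D1:**
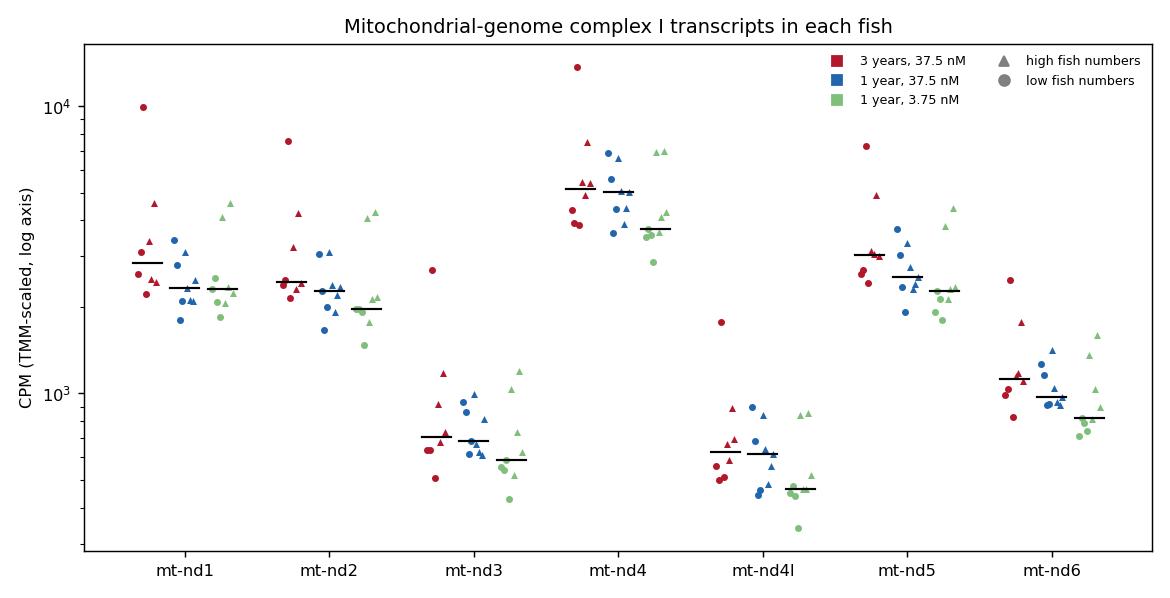
TMM-scaled CPM (log axis) of the 7 complex I genes of the mitochondrial genome in each of 26 fish, with colours for the 3 groups, marker shapes for the high and low fish number runs and a black line at each group's median. For mt-nd1, 1 fish aged 3 years reaches 9950 CPM while the other groups end at 3416 and 4580 CPM.

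The comparison of 3-year with 1-year fish at 37.5 nM asks how these transcripts differ with age under 1 rotenone concentration. None of the 7 genes passed edgeR's quasi-likelihood test at an adjusted p (Benjamini-Hochberg over all genes) under 0.05, where 1.27% of 18935 genes did. The log2 fold changes were all positive, with a median of 0.42 against 0.03 over all genes tested. mt-nd1 had the largest at 0.66 ± 0.28 (SE, adjusted p = 0.205), then mt-nd2 at 0.54 ± 0.25 (adjusted p = 0.235). mt-nd5 stood at 0.43 ± 0.22, mt-nd3 at 0.42 ± 0.29, mt-nd6 at 0.32 ± 0.20, mt-nd4l at 0.31 ± 0.25 and mt-nd4 at 0.29 ± 0.25, with adjusted p between 0.280 and 0.519. At an unadjusted p under 0.05, 2 of the 7 passed (mt-nd1 and mt-nd2), against 20.4% of all genes.

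Of the other 6 mitochondrial-genome genes, the ATP synthase genes mt-atp8 (0.46 ± 0.21) and mt-atp6 (0.45 ± 0.23) had log2 fold changes like those of the complex I genes. mt-co1 (0.02 ± 0.23), mt-co2 (0.16 ± 0.24), mt-co3 (-0.06 ± 0.21) and mt-cyb (0.10 ± 0.24), which encode cytochrome oxidase subunits and cytochrome b, lay closer to 0. None of them passed. Of 41 muscle markers, 36 had a positive log2 fold change in the same comparison, with a median of 0.99, against 10109 of 18935 genes, and 0 passed the test. The most abundant, the actin gene actc1b and the creatine kinase gene ckmb, stood at 1.21 ± 0.60 and 1.14 ± 0.45. Split by run, the muscle mean (log2 CPM) was 6.98 at 3 years and 5.30 at 1 year in the low run. The high run went the other way, with 5.75 at 3 years and 6.09 at 1 year. Without replicate 3 of the 3-year fish, log2 fold changes fell to 0.27 for mt-nd1, 0.24 for mt-nd2, 0.20 for mt-nd5 and 0.12 for mt-nd6, while mt-nd3, mt-nd4 and mt-nd4l were at 0.00, 0.00 and 0.01. Without the fish whose muscle mean exceeded 7.5, a limit set after seeing the data, the 7 values lay between 0.10 (mt-nd3) and 0.33 (mt-nd2).

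In the high run (4 against 5 fish) the age log2 fold changes ran from 0.16 for mt-nd4l to 0.40 for mt-nd1, and in the low run (4 against 4) from 0.36 for mt-nd6 to 0.86 for mt-nd1. The low-run values rested on replicate 3 of the 3-year fish: without it (3 against 4) they were -0.39 for mt-nd3, -0.35 for mt-nd4, -0.26 for mt-nd4l, -0.17 for mt-nd6 and -0.11 for mt-nd5, with mt-nd1 and mt-nd2 at 0.05 each and none passing. None passed in either run with all fish, where 0.0995% of genes passed in the high run and 0.179% in the low run. The test of a difference between the runs was not passed by any of the 7 (adjusted p between 0.740 and 0.974), against 0.0635% of 20482 genes.

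The comparison of 37.5 nM with 3.75 nM at 1 year asks how the transcripts differ with rotenone concentration. None of the 7 genes passed, against 4.28% of 18793 genes, and the fold changes were small and of both signs. mt-nd1 stood at -0.14 ± 0.19 and mt-nd2 at -0.08 ± 0.21 (log2, SE). mt-nd4l stood at 0.19 ± 0.19, mt-nd4 at 0.18 ± 0.19, mt-nd3 at 0.11 ± 0.19, mt-nd6 at 0.10 ± 0.16 and mt-nd5 at 0.05 ± 0.18. Adjusted p lay between 0.598 and 0.909, and the median was 0.10 against -0.01 over all genes. At an unadjusted p under 0.05, 0 of the 7 passed, against 22.9% of all genes. The cytochrome oxidase genes mt-co1, mt-co2 and mt-co3 and mt-cyb stood between 0.25 and 0.32, while mt-atp6 and mt-atp8 were at -0.03 and -0.05; none passed.

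Within runs the concentration values parted. In the high run (5 against 5 fish) the 7 log2 fold changes were all negative, from -0.37 for mt-nd1 to -0.03 for mt-nd4l, and 0 of 18929 genes were called by edgeR there (995 at an unadjusted p under 0.05). In the low run (4 against 4) all 7 were positive, from 0.19 for mt-nd1 to 0.56 for mt-nd4, and mt-nd3 (0.53, adjusted p = 0.0468 by edgeR) and mt-nd6 (0.46, adjusted p = 0.0401) passed, where 26.7% of genes did. At 3.75 nM the 5 high-run fish gave 1.17% to 2.26% of their assigned counts to the 7 genes, against 1.01% to 1.24% in the 4 low-run fish. The test of the difference between runs was not passed by any of the 7 (adjusted p between 0.432 and 0.617), against 2.29% of genes.

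**Figure D2:**
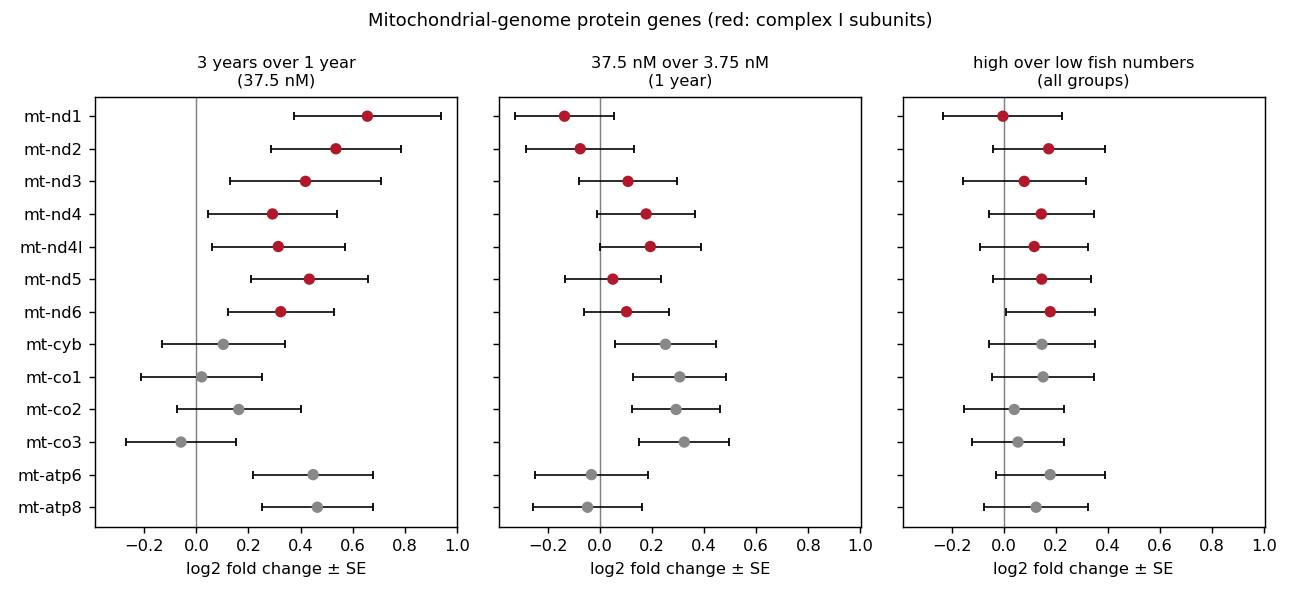
Log2 fold changes with standard errors (x axis) of the 13 protein genes of the mitochondrial genome (y axis, complex I subunits in red) between ages, concentrations and number runs. Between ages all 7 complex I genes lie right of 0, with mt-nd1 at 0.66, while mt-co1 lies at 0.02.

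For the high over the low number run, with group as a term, none of the 7 passed, where 14.3% of 19784 genes did. Their log2 fold changes lay between -0.00 for mt-nd1 and 0.18 for mt-nd6, with adjusted p between 0.511 and 0.994, and 0 of 7 passed unadjusted, against 29.5% of all genes. Within the fish at 3.75 nM, all 7 were higher in the high run by 0.50 (mt-nd1) to 0.67 (mt-nd2) on the log2 scale, without passing (adjusted p between 0.135 and 0.358), where 16.8% of genes passed. Within the 3-year fish the 7 values lay between -0.47 and -0.04 (0.918% of genes passed), and within the 1-year fish at 37.5 nM between -0.04 and 0.10 (1.21% passed), with none of the 7 passing. Of 15 fibroblast markers 7 rose in the high run, against the same 14.3% of all genes called in either direction, among them the collagen genes COL1A1 by 2.24 ± 0.48, col1a1a by 2.09 ± 0.48, col5a2b by 2.06 ± 0.42 and COL1A2 by 1.99 ± 0.45 on the log2 scale. All 15 were positive within each 1-year group (medians 1.53 at 37.5 nM and 0.80 at 3.75 nM). Only 7 of the 15 were positive within the 3-year fish (median -0.003). The part of these markers in the values of the 7 genes was not tested.

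Ratios within a fish do not depend on how libraries are scaled. The 7 genes together made up 19.1% ± 1.24 of the counts of the 13 protein genes at 3 years and 37.5 nM, 15.7% ± 1.02 at 1 year and 37.5 nM and 18.0% ± 1.35 at 1 year and 3.75 nM (SD, n = 8, 9 and 9). The lowest 3-year fish was at 17.3% and the highest 1-year fish at 37.5 nM at 17.1%, so these groups did not overlap; the fish at 3.75 nM (15.2% to 19.4%) overlapped with both. The sum over the 7 genes was given no test, and how often other sets of genes separate these groups was not counted. The sum was also not set against the mean log2 count of the other genes.

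Gene by gene, mt-nd1 took 2.84% to 4.43% of the counts of the 13 genes at 3 years (median 3.46%), 2.30% to 2.82% at 1 year and 37.5 nM (median 2.60%) and 2.72% to 3.77% at 3.75 nM (median 3.49%). mt-nd2 took 2.62% to 3.54% at 3 years (median 3.24%), 2.08% to 2.73% at 1 year and 37.5 nM (median 2.42%) and 2.46% to 3.42% at 3.75 nM (median 3.01%). mt-nd5 took 3.22% to 4.03% at 3 years (median 3.49%), 2.24% to 3.15% at 1 year and 37.5 nM (median 2.93%) and 2.67% to 3.70% at 3.75 nM (median 3.27%). For mt-nd1 and mt-nd5 every 3-year fish lay above every 1-year fish at 37.5 nM, while for mt-nd2 the groups overlapped. As a ratio to the summed other 6 genes, mt-nd3, mt-nd4, mt-nd4l and mt-nd6 overlapped as well. Against the mean log2 count of the other 6 genes, mt-nd1 and mt-nd5 overlapped too, so their separation rested on the denominator. How often other genes separate these groups was not counted. Replicate 3 of the 3-year fish, highest in CPM of every gene, had a share of 4.42% for mt-nd1, near the top of its group, and of 3.22% for mt-nd5, the lowest of its group.

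**Figure D3:**
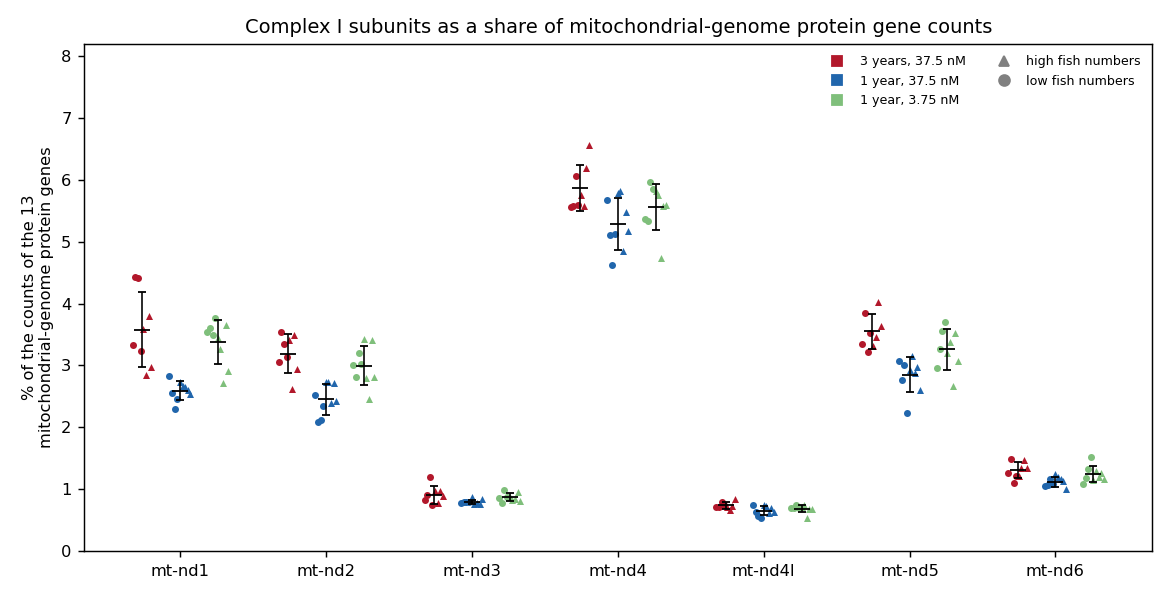
Counts of each complex I gene as a percentage of the counts of the 13 mitochondrial-genome protein genes in each fish (y axis), with the mean and SD of each group in black. The 1-year fish at 37.5 nM have the lowest mean for each of the 7 genes, for example 2.59% for mt-nd1 against 3.58% at 3 years and 3.38% at 3.75 nM.

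Each gene was tested as the log2 ratio of its count to the summed counts of the other 6 mitochondrial-genome protein genes, with two-sided permutation tests over fish adjusted over 21 comparisons (7 genes, 3 comparisons). The tests between ages and between concentrations were exact, and those between runs drew 100000 resamples within groups. These tests were chosen after the values were seen. All 7 ratios share the same denominator and the genes vary together across fish, so the 7 results are not independent of each other. The share of all genes that would pass the same ratio tests was not counted. The calls can therefore not be read as particular to the 7 genes. The ratio was higher at 3 years than at 1 year at 37.5 nM for all 7 genes: by 0.51 for mt-nd1 (exact p = 4.1e-05, adjusted 0.00043), 0.44 for mt-nd2, 0.38 for mt-nd5 (exact p = 4.1e-05), 0.27 for mt-nd6, 0.24 for mt-nd4l, 0.24 for mt-nd3 and 0.21 for mt-nd4, with the largest adjusted p at 0.0155. For mt-nd1 and mt-nd5 the exact p is the smallest that 8 against 9 fish allow, so it restates that the groups did not overlap. Without the fish with a muscle mean over 7.5 the difference was 0.41 for mt-nd1, 0.42 for mt-nd2, 0.38 for mt-nd5, 0.30 for mt-nd6, 0.25 for mt-nd4l, 0.22 for mt-nd4 and 0.18 for mt-nd3. For mt-nd1 the age difference was 0.36 in the high run (exact permutation, p = 0.00794) and 0.66 in the low run (exact permutation, p = 0.0286, the smallest that 4 against 4 fish allow). mt-nd2 stood at 0.30 in the high run and 0.60 in the low run, mt-nd5 at 0.36 and 0.41, and mt-nd6 at 0.28 in both. For mt-nd3, mt-nd4 and mt-nd4l the differences were positive in both runs (0.16 to 0.34) without passing in either (exact permutation, p between 0.0571 and 0.159). The ATP synthase genes mt-atp6 and mt-atp8, with age log2 fold changes of 0.45 and 0.46, are part of the denominator and were given no such test. Nor were the nuclear subunits of complex I, with median age log2 fold changes of 0.61 (core) and 0.62 (accessory).

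Between concentrations, the ratio was lower at 37.5 nM for mt-nd1 by -0.42 (exact permutation, adjusted p = 0.00115), mt-nd2 by -0.33, mt-nd5 by -0.23, mt-nd6 by -0.18 and mt-nd3 by -0.16, with adjusted p up to 0.0176. The differences for mt-nd4 (-0.11, adjusted p = 0.135) and mt-nd4l (-0.11, adjusted p = 0.292) did not pass the exact permutation test. Within runs mt-nd1 stood at -0.29 in the high run (exact permutation, p = 0.0238) and -0.57 in the low run (exact permutation, p = 0.0286). None of the other 6 passed in the high run, where mt-nd2 stood at -0.22, mt-nd5 at -0.14, mt-nd3 at -0.13 and mt-nd6 at -0.11 (exact permutation, p between 0.0635 and 0.175). In the low run mt-nd2 (-0.47) and mt-nd3 (-0.20) passed (exact permutation, p = 0.0286 each), while mt-nd5 (-0.35) and mt-nd6 (-0.28) did not (exact permutation, p = 0.0571 each). Both comparisons share the 1-year fish at 37.5 nM, so they are not independent of each other. Here too the share of all genes that would pass the same tests was not counted. Between number runs none of the 7 ratios passed the permutation test within groups, with differences from -0.11 to 0.04.

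The summed counts of the other 6 genes are mostly mt-co1, mt-co2, mt-co3 and mt-cyb, and the choice of denominator matters. Against the mean log2 count of the 6, which weighs mt-atp6 and mt-atp8 equally with them, the age difference passed for mt-nd1 (0.39), mt-nd2 (0.32) and mt-nd5 (0.26; exact permutation, adjusted p = 0.00363). It did not pass for mt-nd6 (0.15, adjusted p = 0.0962), mt-nd4l (0.12), mt-nd3 (0.12) or mt-nd4 (0.09). On that scale the concentration difference passed for mt-nd1 (-0.33) and mt-nd2 (-0.25; exact permutation, adjusted p = 0.00108), and for none of the other 5 genes. The ratio of mt-nd1 to mt-co1 counts alone averaged 0.109 at 3 years, 0.0720 at 1 year and 37.5 nM and 0.0998 at 3.75 nM.

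mt-nd6, the gene on the other strand, was also set against the summed counts of the other 12 protein genes. Its log2 ratio was higher at 3 years by 0.22 (exact permutation, p = 0.00337, adjusted over 3 comparisons 0.0101), lower at 37.5 nM than at 3.75 nM by -0.15 (exact permutation, p = 0.0232, adjusted 0.0349), and 0.03 higher in the high run (permutation p = 0.562). Against the mean log2 count of the 12 genes the differences were 0.04 between ages (exact permutation, p = 0.481) and -0.03 between concentrations (exact permutation, p = 0.658), so the call rested on the denominator.

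Pairs of the 7 genes were also set against each other over the 26 fish, on log2 CPM less the group mean. Pearson's r ran from 0.93 (mt-nd4l with mt-nd6) to 0.99 (mt-nd4 with mt-nd4l, neighbours on the genome), as a description in which all values share libraries. With the other 6 protein genes r ran from 0.82 to 0.98, so some of those pairs were as close: mt-co2 and mt-cyb had r = 0.98 and 0.97 with mt-nd4, and mt-co2 had 0.97 with mt-nd3. Likeness was ranked over 12269 genes with a symbol outside the mitochondrial genome. COX5A, a cytochrome oxidase subunit, had r = 0.96 with mt-nd1, with the ATP synthase genes ATP5PD and atp5mj next at 0.95 each. cox8b, another oxidase gene, had r = 0.92 with mt-nd2, followed by si:dkey-181m9.5 and COX5A. si:dkey-181m9.5 was also first for mt-nd4 (0.93), mt-nd4l (0.93) and mt-nd5 (0.93). The acyl-CoA dehydrogenase genes ACADL and ACADM followed mt-nd3 (0.93 each), and hadhaa, for a fat-oxidation enzyme, followed mt-nd6 (0.94). ACADM and ACAT1 were next for mt-nd4, cox8b and RNF207 for mt-nd4l, COX6A1 and RNF207 for mt-nd5, si:dkey-181m9.5 and ACADM for mt-nd6 and COX5A for mt-nd3.

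The nuclear subunits of complex I, as the mean z-score of 38 genes, were related to each of the 7 genes, and skeletal muscle markers likewise, giving 14 relations. With the nuclear subunits, mt-nd1 had r = 0.93 and rho = 0.82 (permutation p = 1e-05, the smallest that 100000 resamples can give, adjusted 2e-05). The other 6 genes had r from 0.83 to 0.90 and rho from 0.61 to 0.75, each with adjusted p = 2e-05 by permutation. Without the 2 fish farthest from the median of the list, r was 0.84 for mt-nd1 and 0.64 to 0.75 for the others. Within the high run r was 0.89 to 0.95 and within the low run 0.90 to 0.97.

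With the muscle markers, r was 0.72 for mt-nd1 (rho = 0.60, permutation p = 5e-05) and 0.59 (mt-nd4) to 0.68 (mt-nd2) for the others, with adjusted p up to 0.00152. Spearman's rho was 0.35 for mt-nd4 and 0.36 for mt-nd6, with permutation p = 0.0822 and 0.0739. Without the 2 fish farthest from the median, r was 0.50 for mt-nd1 (permutation p = 0.0127) and 0.43 for mt-nd2 (permutation p = 0.0368), and 0.29 to 0.39 for the other 5 genes (permutation p between 0.0596 and 0.166). Within the high run r was 0.81 to 0.87 and within the low run 0.72 to 0.79. Without the 2 farthest fish of each run, r was 0.72 to 0.79 in the high run and 0.44 to 0.58 in the low run.

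**Figure D4:**
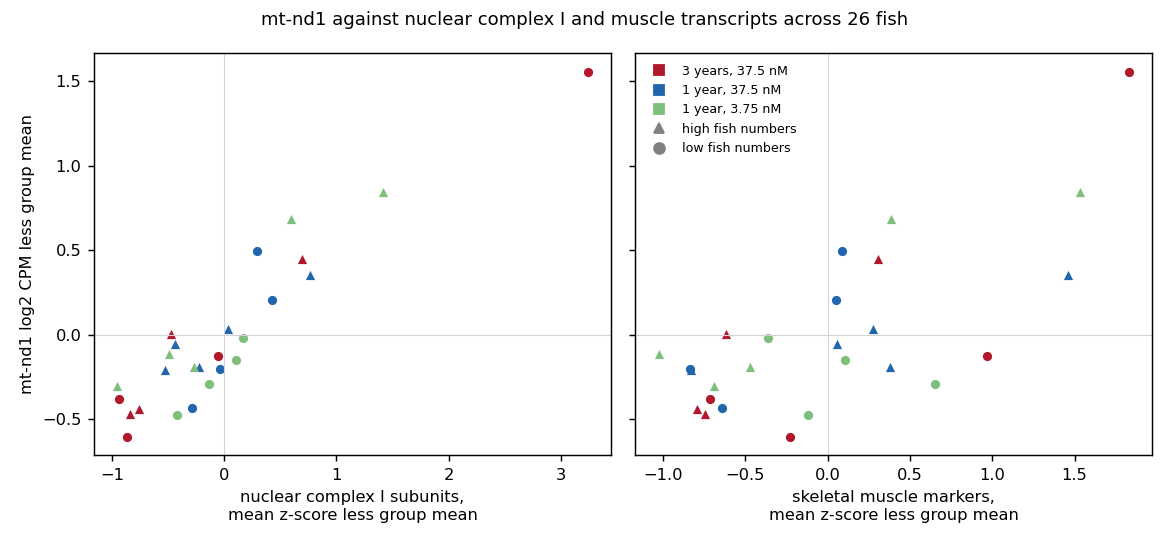
mt-nd1 log2 CPM less its group mean (y axis) against the mean z-score of 38 nuclear complex I genes (left) and of 41 muscle markers (right), less the group mean, in 26 fish. The points lie close to a line on the left (r = 0.93) and scatter more on the right (r = 0.72), with replicate 3 of the 3-year fish at the upper right of both.

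Among the nuclear partners, 0 of 7 core and 0 of 31 accessory subunits passed between ages, where 1.27% of all genes did. At an unadjusted p under 0.05 by edgeR, 4 core and 25 accessory subunits passed, all higher at 3 years. Over all genes 20.4% passed in either direction, and 2167 of 18935 passed as higher. All 38 had a positive log2 fold change, against 10109 of 18935 genes, with medians of 0.61 and 0.62. The most abundant were NDUFS1 (0.68 ± 0.26) and NDUFV1 (0.01 ± 0.18) of the core, which carry the electron path, and NDUFA10 (0.68 ± 0.24) and NDUFB8 (0.54 ± 0.25) of the accessory set. Core means (log2 CPM) were 7.35 at 3 years and 6.91 at 1 year in the low run. They were 7.03 and 6.78 in the high run. Accessory means were 5.69 and 5.14 in the low run and 5.38 and 5.07 in the high run. The age difference was smaller in the high run for all 38, with none passing that test, which 0.0635% of 20482 genes passed. Replicate 3 of the 3-year fish, of the low run, had the highest mean z-score of the 38 in any fish (3.74). Age values of the 38 without this fish were not examined. Between concentrations none passed either, where 4.28% of all genes did. The medians were -0.19 and -0.23, with NDUFV1 at 0.01, NDUFS1 at -0.23, NDUFB8 at -0.13 and NDUFA10 at -0.29. For the number run none passed, where 14.3% of all genes did. The medians were -0.14 and -0.13, with NDUFV1 at -0.11, NDUFS1 at -0.14, NDUFB8 at -0.15 and NDUFA10 at -0.21.

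Complex I assembly factors gave 0 calls of 17 between ages, where 1.27% of all genes were called. Their median was 0.43, with AIFM1 at 0.43 ± 0.15 and NDUFAF1 at 0.44 ± 0.23. Between concentrations 3 of 17 fell at 37.5 nM, against 4.28% of all genes called. Their log2 fold changes were -1.26 ± 0.29 for FOXRED1, -0.56 ± 0.15 for ECSIT and -0.56 ± 0.15 for NDUFAF7, a methyltransferase that acts on a core subunit. In the low run the list mean (log2 CPM) was 3.14 at 37.5 nM and 3.49 at 3.75 nM. In the high run it was 2.98 and 3.14. Within the fish at 3.75 nM 5 of the 17 were lower and 1 was higher in the high run, where 16.8% of genes were called. For the run, 5 of 17 were lower in the high run, against 14.3% of all genes called, the largest by size being FOXRED1 at -0.79, AIFM1 at -0.44, NDUFAF5 at -0.41 and NDUFAF7 at -0.41.

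Of 27 genes that process, modify or stabilise mitochondrial RNA, 0 passed between ages, where 1.27% of all genes did. The median was 0.14, with LRPPRC, which stabilises mitochondrial messenger RNAs in mammals, at 0.50 ± 0.17 and fastk at 0.14 ± 0.09. Between concentrations 8 fell at 37.5 nM and 0 rose, against 4.28% of all genes called, with a median of -0.34 over the 27. The list mean (log2 CPM) at 37.5 nM was 2.98 in the high run and 3.15 in the low run, and at 3.75 nM it was 3.16 in the high run and 3.54 in the low run. Within the fish at 3.75 nM 10 of the 27 were lower in the high run, where 16.8% of genes were called. The test of a difference in the concentration effect between the runs was passed by 1 of the 27, against 2.29% of all genes. The largest changes were HSD17B10, a part of mitochondrial RNase P, at -0.77 ± 0.21, the transfer RNA modifier TRMU at -0.72 ± 0.20, the poly(A) phosphodiesterase PDE12 at -0.71 ± 0.18 and the ribosomal RNA methyltransferase mrm3a at -0.66 ± 0.18. For the run 4 of 27 were lower in the high run, near the 14.3% called over all genes: HSD17B10 at -0.70, LRPPRC at -0.57, ptcd3 at -0.56 and SLIRP, the partner of LRPPRC, at -0.49. These calls between concentrations, like those of the assembly factors and pprc1, were lost without replicate 7 of the 1-year fish at 37.5 nM, when edgeR called 0 of 18932 genes (3885 at an unadjusted p under 0.05), and without replicate 1 at 3.75 nM, when edgeR called 0 of 18946 (3738 unadjusted). Without replicate 1, 2 or 3 at 37.5 nM edgeR called 7 genes each, and without replicate 2, 3 or 4 at 3.75 nM 8 genes each.

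Genes that transcribe and copy mitochondrial DNA gave 0 calls of 16 between ages, where 1.27% of all genes were called. Their median was 0.21, with tfb2m at 0.24 ± 0.20 and RNASEH1 at 0.16 ± 0.12. Between concentrations they gave 0 calls, where 4.28% of all genes were called, with a median of -0.17, tfb2m at -0.21 and RNASEH1 at -0.23. For the run 6 of 16 passed, against 14.3% of all genes. In the high run PRIMPOL, a primase-polymerase, rose by 0.94 ± 0.31, and 5 fell, with the single-strand binding protein SSBP1 at -0.59, the helicase TWNK at -0.37 and TEFM, a transcription elongation factor, at -0.32. Of 11 measured regulators of mitochondrial biogenesis, 0 passed between ages, where 1.27% of all genes did (ppargc1b -0.40 ± 0.16, the more abundant YY1 gene -0.13 ± 0.07). Between concentrations 1 of 11 passed, against 4.28% of all genes: pprc1 was lower at 37.5 nM (-1.72 ± 0.33). In the high run alone edgeR called 0 of 18929 genes there (995 at an unadjusted p under 0.05). Between runs the concentration effects of the 11 differed by -0.61 to 2.05, with none passing, against 2.29% of all genes. For the run 1 of the 11 rose and 1 fell, against 14.3% of all genes called. The gene ppargc1b rose by 0.39 ± 0.10 and the transcription factor TFAM fell by 0.32 ± 0.09. TFAM is on both lists and is already among the 5 genes that fell above.

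Between ages, where 1.27% of all genes were called, the keratin gene cyt1 (3.25 ± 0.72) was the only 1 of 18 keratinocyte markers to pass, and 0 of 15 fibroblast markers (COL1A1 -1.13 ± 0.81, col1a1a -1.06 ± 0.79) and 0 of 15 ionocyte markers (ATP1B1 -0.13 ± 0.20) passed. Between concentrations, where 4.28% of all genes were called, 40 of 41 muscle markers had a negative log2 fold change, against 9596 of 18793 genes. Their median was -0.60 and 0 passed, with actc1b at -0.64 and ckmb at -0.54. In the low run the muscle mean (log2 CPM) was 5.30 at 37.5 nM and 6.32 at 3.75 nM. In the high run it was 6.09 at both concentrations. Between concentrations 0 of the keratinocyte markers passed (krt5 0.02, krt91 0.01), and of the fibroblast markers 0 (COL1A1 0.17, col1a1a 0.15). The ionocyte markers had a median of -0.35 there, with 6 of 15 lower at an unadjusted p under 0.05, against 2564 of 18793 genes. Within the fish at 3.75 nM, 7 of 15 were called lower in the high run, against 1704 of 20482 genes. For the run, where 14.3% of all genes were called, 5 of 18 keratinocyte markers passed, with krt17 at -1.57, dsc2l at 1.42, krt1-19d at -1.18 and krt4 at -0.64. So did 5 of 15 ionocyte markers, 4 lower and 1 higher in the high run. Among the lower were slc12a10.2 at -3.71, foxi3b at -1.77 and ATP6V1A at -0.45. Of 44 muscle markers 0 passed (median -0.05; actc1b -0.38, ckmb -0.64). Ionocytes are rich in mitochondria, and their part in the values of the 7 genes was not tested.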

How the data were processed

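Skin RNA of 26 zebrafish was sequenced in 26 libraries. The submitters' processing notes name the build GRCz10 and the tools featureCounts 1.4.6-p4, STAR 2.4.1d and CASAVA 1.8.2. How reads that match several places were counted is not given in the sources used here. In these data the authors deposited whole-number counts per Ensembl gene, without normalization, and RPKM values, each in 2 tables (37.5 nM and 3.75 nM). The deposited RPKM do not follow library totals: over genes of 300 counts or more, count over RPKM, compared in a single pair of libraries, came back to the same values every 50 rows. Over the 13 protein genes of the mitochondrial genome, the scale applied departed from a library's total by -0.59 to 0.41 on the log2 scale. RPKM was used only for the order of levels, averaged over fish, and as an alternative.

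Groups came from the age and perturbation labels. Tests used edgeR 4.0.16 (TMM scaling, filterByExpr, robust quasi-likelihood fit) in R 4.3.3. Adjusted p-values are Benjamini-Hochberg over all genes, called under 0.05. The standard error is the log2 fold change over the square root of F. Each library is 1 fish, and nothing in the labels says how fish were housed or dosed together. The edgeR procedure was tested on simulated data for the age and run comparisons. Genes were drawn independently there, without an outlying fish, so its outcome does not cover fish that stand apart or genes that vary together. Ratios were tested by exact permutation over fish between ages and between concentrations and by 100000 permutations within groups for the run. Relations were tested by 100000 permutations of log2 CPM (prior count 2). These permutations were run with numpy 2.4.6. No 2 of the 325 library pairs held identical counts.

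Symbols came from the reference table of gene names (26269 identifiers with a symbol), in its spelling. The mitochondrial ribosomal RNA genes were not matched and are not analysed here. All 7 genes and the other 6 protein genes are named. Some results of the ionocyte list are not reported here. From each list, at most 4 genes past the threshold with the largest changes are named, or the 2 most abundant where none passed; likeness names the 3 genes with the highest r per gene, at a mean log2 CPM of at least 2, and leaves out identifiers without a symbol. The genes, lists and tests were chosen with earlier results of these data known. Alternatives were other scalings, filters, DESeq2 1.42.0, limma 3.58.1 on RPKM, a muscle or run term, single runs and leaving out each fish.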

Additional observations from a re-analysis of the deposited data

Results flagged for a closer look

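Of 48 sets of values checked (CPM and ratios of the 7 genes in each group, among others), 7 held a fish that stood far from the rest of its group. Chance gives about 1 in 20 for independent, normally distributed sets. These sets share fish and hold genes that vary together, so 7 of 48 cannot be set against that rate. In the 3-year group, replicate 3 was far above the other 7 fish in CPM of mt-nd1 (9950, next 4612), mt-nd2 (7549, next 4240), mt-nd3 (2695, next 1174), mt-nd4 (13672, next 7507) and mt-nd4l (1768, next 887). The same fish had the highest muscle mean (8.64 log2 CPM). In the 1-year group at 3.75 nM, replicate 7 was far below the others in the log2 ratio to the other 6 mitochondrial-genome protein genes for mt-nd4 (-4.16, next -3.95) and mt-nd4l (-7.31, next -6.94). Its muscle mean was the lowest of its group at 4.84.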

How the results depend on the processing

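None of the 7 genes was called under any alternative run, except mt-nd3 and mt-nd6 (2 genes) between concentrations in the low run alone. Their age log2 fold changes were positive in 86 values under other settings and all 119 without single fish. The other 5 came in the low run also without replicate 3 at 3 years, chosen after seeing the data: mt-nd3 (-0.39), mt-nd4 (-0.35), mt-nd4l (-0.26), mt-nd5 (-0.11) and mt-nd6 (-0.17). Leaving out single fish gave ranges of 0.27 to 0.74 for mt-nd1 and 0.00 to 0.52 for mt-nd3. The calls over all genes moved more: between ages, 1267 with DESeq2, 398 with the run as a term, 19 in the high and 34 in the low run alone (41 in the low run also without replicate 3 at 3 years), 75 without fish of high muscle mean, 119 with limma on RPKM, and 64 to 712 without single fish (lowest without replicate 8 at 1 year and 37.5 nM, highest without replicate 6 at 3 years). Between concentrations there were 209 without the filter, 1851 with DESeq2, 369 with the muscle mean as a term, 1396 with the run as a term, 0 in the high and 5024 in the low run alone, and 0 to 1661 without single fish (0 by edgeR without replicate 7 at 37.5 nM or replicate 1 at 3.75 nM, with 3885 and 3738 at an unadjusted p under 0.05; 7 or 8 without replicates 1 to 3 at 37.5 nM or 2 to 4 at 3.75 nM; highest without replicate 9 at 3.75 nM). For the run there were 188 within 3-year fish, 248 within 1-year fish at 37.5 nM and 2023 to 3662 without single fish. Signs between concentrations turned with the muscle mean as a term for mt-nd1 (0.031) and mt-nd2 (0.11), in the low run alone for mt-nd1 (0.19) and mt-nd2 (0.28), without fish of high muscle mean for mt-nd2 (0.011), and in the high run alone for mt-nd3 (-0.17), mt-nd4 (-0.083), mt-nd4l (-0.032), mt-nd5 (-0.20) and mt-nd6 (-0.14). Without single fish they ranged from -0.22 to 0.0045 for mt-nd1, -0.17 to 0.078 for mt-nd2 and -0.028 to 0.19 for mt-nd5. For the run, mt-nd1 was 0.026 with library totals, 0.0082 with scaling without mitochondrial genes, 0.00031 without the filter, 0.098 with the muscle term, 0.16 without fish of high muscle mean, 0.50 within 3.75 nM and -0.067 to 0.25 without single fish. Within 3-year fish mt-nd2 to mt-nd6 were negative (mt-nd2 -0.26, mt-nd3 -0.36, mt-nd4 -0.15, mt-nd4l -0.24, mt-nd5 -0.093, mt-nd6 -0.038), and within 1-year fish at 37.5 nM mt-nd3 (-0.044), mt-nd4 (-0.018) and mt-nd5 (-0.031) were. The mt-nd6 ratio to the other 12 genes no longer passed between ages in the low run (0.21) or against their mean log2 count (0.044), nor between concentrations in the low run (-0.22), the high run (-0.082) or against the mean log2 count (-0.028); without single fish it was 0.19 to 0.25 and -0.17 to -0.11. The mt-nd4l ratio between concentrations was 0.0074 in the high run. The cause of these shifts was not tested. No paired analysis was possible because replicate numbers only name fish in accession order and mark no shared animal, tank or day. The lowest count of any of the 7 genes in a fish was 9682, so depth limits none of them.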
